A study of Mus musculus with 12 samples.

Results

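The nuclear genes for subunits of respiratory complexes I, III and V were followed across 3 genotypes in RNA sequencing of mouse spinal cord. Members were the rows of the authors' table of normalized TPM (an abundance per length of transcript) whose symbol begins with Nduf and one of the letters a, b, c, s or v before a digit, with Uqcr, or with Atp5 and whose mean across all 12 mice was 1 TPM or more. This gave 63 genes, 38 of complex I, 8 of complex III and 17 of complex V, out of 15259 rows that reached that mean among 36121 in all. Of 76 rows with a fitting symbol, 10 lay under the threshold and 3 were second rows of Atp5a1, Ndufs3 and Uqcrc1 under another gene ID, with values identical to those of the first. Whether reads were divided between such rows or a value was entered under both IDs was not tested, so the levels of these 3 genes are those of 1 row. The nearest gene inside the threshold was Ndufa4l2 at a mean of 5.24 TPM, and the nearest outside was the pseudogene Atp5l-ps1 at 0.286 TPM. The members were defined by symbol and level over all mice and not by any difference between genotypes. They were, however, chosen with earlier results of these data known.

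Spinal cords came from 3-month-old C57BL6 mice, 4 in each group and 2 of each sex per group. The cKO mice carried Gfap-Cre with both Tardbp alleles floxed (Gfap-Cre; Tardbp-fl/fl), the cHet mice carried Gfap-Cre with 1 floxed allele (Gfap-Cre; Tardbp-fl/+), and the controls carried Tardbp-fl/fl without Cre. Tardbp encodes TDP-43, a nuclear RNA-binding protein, and the Gfap promoter is active mainly in astrocytes but also in some progenitor cells. No group with Cre and an intact Tardbp was part of these 3 genotypes, so Cre and the loss of a Tardbp allele cannot be told apart in either contrast with control.

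Tardbp was measured at 148 ± 5.06 TPM in cKO, 170.4 ± 8.64 TPM in cHet and 171 ± 6.73 TPM in control cords (SD, n = 4 each), which is the level of the whole cord and not of the recombined cells. TPM keeps no read depth, so depth is unknown. Library sums of the deposited values were 1017855 to 1048381 in cKO, 983452 to 1023987 in cHet and 954895 to 978621 in control, and 15188 to 15384 rows reached 1 TPM in each library.

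In the inner mitochondrial membrane, complex I takes electrons from NADH and passes them to ubiquinone, complex III passes them on to cytochrome c, and complex V, the ATP synthase, uses the resulting proton gradient to make ATP. Each is assembled from proteins of both genomes, with a few hydrophobic core subunits encoded in mitochondrial DNA and the others encoded in the nucleus and imported. The symbol rule leaves out some nuclear subunits with other names, such as Cyc1 and Ndufab1, and takes in Ndufb4c, annotated as a pseudogene, and Ndufa4. Neurons of the spinal cord depend heavily on this pathway, and astrocytes are known to run more on glycolysis.

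Nuclear subunit genes of all 3 complexes were higher in cKO than in control cords, by small amounts. Of the 63 members 35 rose in cKO and 0 fell (limma over all 15259 rows, called at an adjusted p under 0.05), which is 55.6% of members, whereas 5.75% of all rows were called higher and 3.25% lower. The difference was above 0 for 62 members, and its median was 0.17 on the log2(TPM + 0.5) scale (12.3%), beside 0.01 for all rows. With library totals set equal without mitochondrially encoded genes, 24 members were called higher and 0 lower, and the balance of all rows turned, with 473 called higher and 822 lower, against 878 and 496 as deposited. Without cKO replicate 2, and likewise without control replicate 2, 23 members were called. Ndufa3 was the 1 member with a mean below control in cKO.

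The summed level of the members was 29810.1, 31406, 30325 and 31373 TPM in the 4 cKO cords, 28935, 31118, 29297 and 28795 TPM in the 4 cHet cords, and 27229, 26540, 27032 and 27112 TPM in the 4 control cords. Every cKO and every cHet cord lay above every control cord, while the cKO and cHet cords overlapped through cHet replicate 2. Means were 30728 ± 792 TPM in cKO, 29536 ± 1075 TPM in cHet and 26978 ± 303 TPM in control (SD, n = 4 each). As a share of the TPM of nuclear genes, which removes the difference in library sums, the members held 3.64 to 3.76% in cKO, 3.50 to 3.66% in cHet and 3.34 to 3.40% in control, so both groups with Cre again lay above control. In bulk tissue, fewer cells of a type and less RNA per cell cannot be told apart, and the same holds for more.

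**Figure D1:**
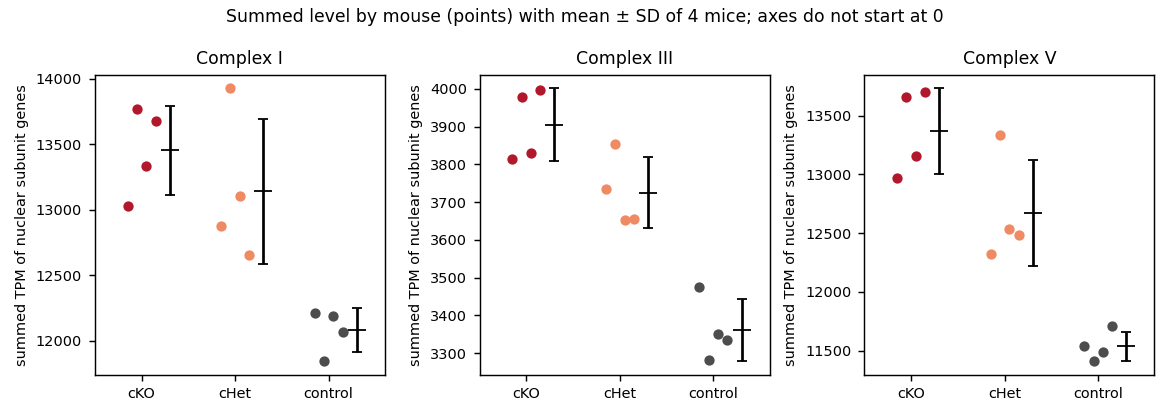
Summed normalized TPM of the nuclear subunit genes of each complex (vertical axis, not starting at 0) in each cord (points) of the cKO, cHet and control groups, with mean ± SD of 4 mice. For complex I, for example, control cords lie between 11847 and 12216 TPM, below all cHet and all cKO cords. In all 3 panels cHet replicate 2 is the highest of its group. Complexes are assigned by symbol, so the complex I panel includes Ndufa4 and Ndufb4c.

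In each complex the mean summed level was highest in cKO and lowest in control. Genes counted under complex I summed to 13454 ± 339 TPM in cKO, 13141 ± 556 TPM in cHet and 12081.5 ± 169 TPM in control cords (SD, n = 4 each). These sums include Ndufa4, now assigned to complex IV, at means of 1166 TPM in cKO, 1132 TPM in cHet and 1047 TPM in control. They also include the pseudogene row Ndufb4c, at 418 TPM in cKO, 406 TPM in cHet and 372 TPM in control. Complex III genes summed to 3905 ± 96.5 TPM in cKO, 3725 ± 94.1 TPM in cHet and 3361 ± 81.9 TPM in control cords. Complex V genes summed to 13369.5 ± 364 TPM in cKO, 12671 ± 452 TPM in cHet and 11536 ± 125 TPM in control cords. The called shares for cKO against control were 19 of 38 for complex I, 6 of 8 for complex III and 10 of 17 for complex V. Ndufa4 was among the 19. Median log2 differences were 0.17, 0.18 and 0.17. A difference between complexes was not tested.

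Among single members the 4 cKO values lay above all 4 control values in 49 of 63 cases, as in 10.5% of all rows. They lay below all 4 in 0 cases, as in 6.59% of all rows. All rows run down to a mean of 1 TPM, while 58 of the 63 members have 100 TPM or more. Shares of such non-overlap among rows of like level were taken in no contrast. The authors' deposited tables hold all 63 members. At a q under 0.05 the authors' deposited likelihood ratio test had 40 members higher in cKO than in control, with 6.50% of their rows higher, and the Wald test in the same deposited table had 45, with 6.99% of rows. Neither had a member lower.

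Members were measured at widely different levels. TPM is scaled per length, so levels can be set beside each other between genes. Members counted under complex I ranged from 5.24 TPM (Ndufa4l2) to 1115 TPM (Ndufa4). Both ends are set by genes that carry complex I names, since Ndufa4 is now assigned to complex IV and Ndufa4l2 is its paralog. Complex III members ranged from 137 TPM (Uqcrc1, 1 of its 2 identical rows, with Uqcrfs1 next at 165 TPM) to 872 TPM (Uqcrh). Complex V members ranged from 38.6 TPM (Atp5s) to 2939 TPM (Atp5b). All are means over 12 mice. Between the 4 controls the median coefficient of variation of a member was 3.75% in complex I, 3.60% in complex III and 2.76% in complex V, below the 12.3% median difference of cKO from control. The highest were Atp5g2 at 19.1% and Ndufa4l2 at 17.6%.

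**Figure D2:**
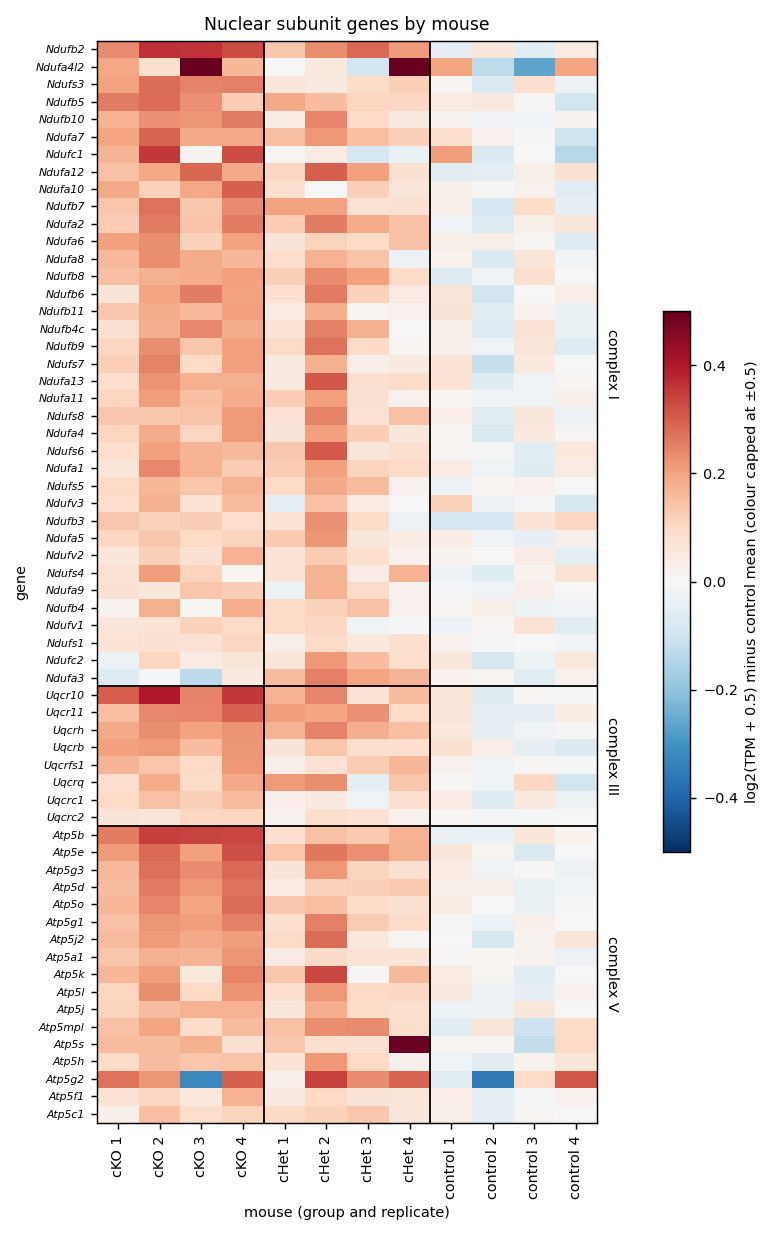
Difference of log2(TPM + 0.5) from the control mean (colour, capped at ±0.5) for 62 nuclear subunit genes (rows, grouped by complex and ordered by the difference of cKO from control) in the 12 cords (columns: 4 cKO, 4 cHet, 4 control). Nearly all rows are red in the 4 cKO columns and paler red in the cHet columns, cHet replicate 2 is the darkest cHet column, Ndufa3 is pale or blue in most cKO columns, and Ndufa4l2, Atp5g2 and Atp5s have single cords far from the rest of their group.

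RefSeq promoter windows (GRCm38.p6), from 250 bases before to 50 bases after an annotated start, were matched by symbol for 52 of the 63 members, 32 of complex I, 5 of complex III and 15 of complex V. NRF1, YY1, ETS-family factors and SP1 are textbook regulators of respiratory chain genes, and ZNF143 binds many housekeeping promoters. Searched on both strands with exact letters, the NRF1 letters GCGCATGC were in 8 of 52 members (15.4%), against 5.70% of 11140 genes that were tested and have a window. The YY1 letters AAGATGGC were in 10 of 52 (19.2%), against 4.88% of tested genes, and the ETS letters CCGGAAG were in 11 of 52 (21.2%), against 18.3%. The SP1 letters GGGCGG were in 20 of 52 (38.5%), against 67.5% of tested genes, and the TATA letters TATAAA were in 5 of 52 (9.62%), against 8.94%. Over all 27025 genes with a window the shares were 3.05% for NRF1, 3.19% for YY1, 9.93% for ETS, 38.2% for SP1 and 15.7% for TATA. A match is a string of letters and not a bound site.

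The ZNF143 letters CTACAANTC, a string chosen after the member sequences had been read, were in 4 of 52 members (Atp5d, Atp5o, Ndufa3 and Uqcr10; 7.69%), against 3.00% of tested genes and 1.67% of all genes with a window. The 150 bases just before the start are shown for Uqcr10, Ndufa3 and Ndufa11. Uqcr10 had the highest difference of cKO from control, and Ndufa3 was the 1 member called lower in cKO than in cHet. The Ndufa11 window holds the NRF1 string on both strands at overlapping positions. Atp5g2 (first bases at -42 and -40 from the start) and Atp5k (-50 and -48) hold such a pair too and are not shown. Uqcr10 lies on the minus strand (stretch chr11:4704345-4704494), Ndufa3 on the plus strand (chr7:3617223-3617372) and Ndufa11 on the plus strand (chr17:56717612-56717761), and all are written 5′ to 3′. Capitals mark the ZNF143 string in Uqcr10 (first base at -57 from the start) and Ndufa3 (-84), the SP1 string in Ndufa3 (-48), and the 2 overlapping NRF1 strings in Ndufa11 (-60 and -58).
Uqcr10: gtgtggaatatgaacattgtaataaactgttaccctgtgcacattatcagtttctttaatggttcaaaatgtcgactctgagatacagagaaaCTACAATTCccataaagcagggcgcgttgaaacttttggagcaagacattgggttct
Ndufa3: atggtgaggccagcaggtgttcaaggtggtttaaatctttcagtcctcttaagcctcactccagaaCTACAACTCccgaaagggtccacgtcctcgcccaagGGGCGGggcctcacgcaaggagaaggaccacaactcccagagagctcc
Ndufa11: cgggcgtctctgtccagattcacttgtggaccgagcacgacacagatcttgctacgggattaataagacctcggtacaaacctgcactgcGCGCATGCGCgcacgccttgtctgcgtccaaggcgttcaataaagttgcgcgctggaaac
Of the 4 members with the ZNF143 string, Atp5d, Atp5o and Uqcr10 rose in cKO against control, and Ndufa3 was not called in that contrast. Over all members 35 of 63 (55.6%) rose, and a link between the string and the difference was not tested.

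Complex V gave the highest level and the smallest adjusted p of the members. Atp5b, the catalytic beta subunit of the F1 head (chromosome 10, 128083273 to 128090391), had 3146, 3352, 3332 and 3323 TPM in cKO cords, 2795, 2918, 2884 and 2971 TPM in cHet cords, and 2567, 2575, 2739 and 2667 TPM in control cords. The 3 groups did not overlap, with every cKO cord above every cHet cord and every cHet cord above every control cord. Atp5b rose in cKO by 0.32 ± 0.03 (SE) on the log2 scale (limma adjusted p = 0.000134) and was called in all 21 alternative settings.

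Of the 5 F1 genes 4 rose in cKO against control. Atp5a1, the alpha subunit of the head, was at 303 ± 7.07 TPM in cKO, 281 ± 4.57 TPM in cHet and 268 ± 3.92 TPM in control cords (SD, n = 4 each) and rose by 0.18 in cKO against control (limma adjusted p = 0.00102). Its printed level is that of 1 of 2 identical rows. Atp5d, the delta subunit of the central stalk, had 346, 371, 361 and 375 TPM in cKO cords, 319, 336, 337 and 340.2 TPM in cHet cords, and 316, 316, 302 and 307 TPM in control cords, again without overlap between groups. Atp5e, the epsilon subunit beside it, rose by 0.26 ± 0.04 in cKO against control (limma adjusted p = 0.00164). Atp5c1, the gamma subunit that forms the shaft, was at 331 ± 11.9 TPM in cKO, 333 ± 7.59 TPM in cHet and 310.3 ± 6.94 TPM in control cords and was not called (limma adjusted p = 0.0844).

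The peripheral stalk, which holds the head against rotation, had 2 of 4 genes called. Atp5o, the oligomycin sensitivity conferring protein, had 442, 467, 452 and 479 TPM in cKO cords, 432, 437, 420.2 and 415 TPM in cHet cords, and 404, 395, 385 and 392 TPM in control cords. The groups did not overlap, and Atp5o rose in cKO against control by 0.22 ± 0.03 (limma adjusted p = 0.000788). Atp5j, coupling factor 6, was the other called gene, and Atp5h and Atp5f1 were not called (log2 differences of 0.13 and 0.10). Exons of Atp5o overlap those of antisense genes, and no source used here says whether the library kit marked strand.

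The c-ring, whose rotation carries the protons, is encoded by 3 genes that make the same mature protein. Atp5g3 and Atp5g1 rose in cKO against control, by 0.24 ± 0.04 and 0.21 ± 0.04 (limma adjusted p = 0.00227 and 0.00538). Atp5g2 had 65.6, 63.3, 43.3 and 66.8 TPM in cKO cords, 55.1, 68.9, 64.0 and 66.4 TPM in cHet cords, and 52.2, 42.3, 57.9 and 67.4 TPM in control cords, and these values overlapped fully. A transcribed pseudogene, Gm10175, is identical to Atp5g2 over 645 bases and was listed at a mean of 280 TPM, so the reads of this pair cannot be told apart. The sum of the pair was 345 ± 18.0 TPM in cKO, 352 ± 14.6 TPM in cHet and 319.8 ± 7.69 TPM in control cords (SD, n = 4 each). Atp5g3 made up 60.3 to 61.4% of the summed TPM of the 3 genes in cKO, 59.5 to 60.1% in cHet and 59.3 to 60.9% in control cords. With Gm10175 added to Atp5g2 these shares were 52.1 to 52.9% in cKO, 50.6 to 51.2% in cHet and 50.7 to 52.1% in control cords. Either way the cKO shares lay above all cHet shares, a difference that was not tested.

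Among the small membrane subunits, which take part in dimers of the synthase and the shape of cristae, Atp5j2 and Atp5l rose in cKO against control (2 of 4), by 0.19 ± 0.05 and 0.17 ± 0.04 (limma adjusted p = 0.0389 and 0.0255). Atp5k and Atp5mpl differed by 0.17 ± 0.06 and 0.15 ± 0.05 and were not called (limma adjusted p = 0.113 and 0.0829). Atp5s, the coupling factor B gene and the lowest of complex V, was at 39.2 ± 1.22 TPM in cKO, 41.0 ± 6.08 TPM in cHet and 35.5 ± 2.26 TPM in control cords (SD, n = 4 each).

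**Figure D3:**
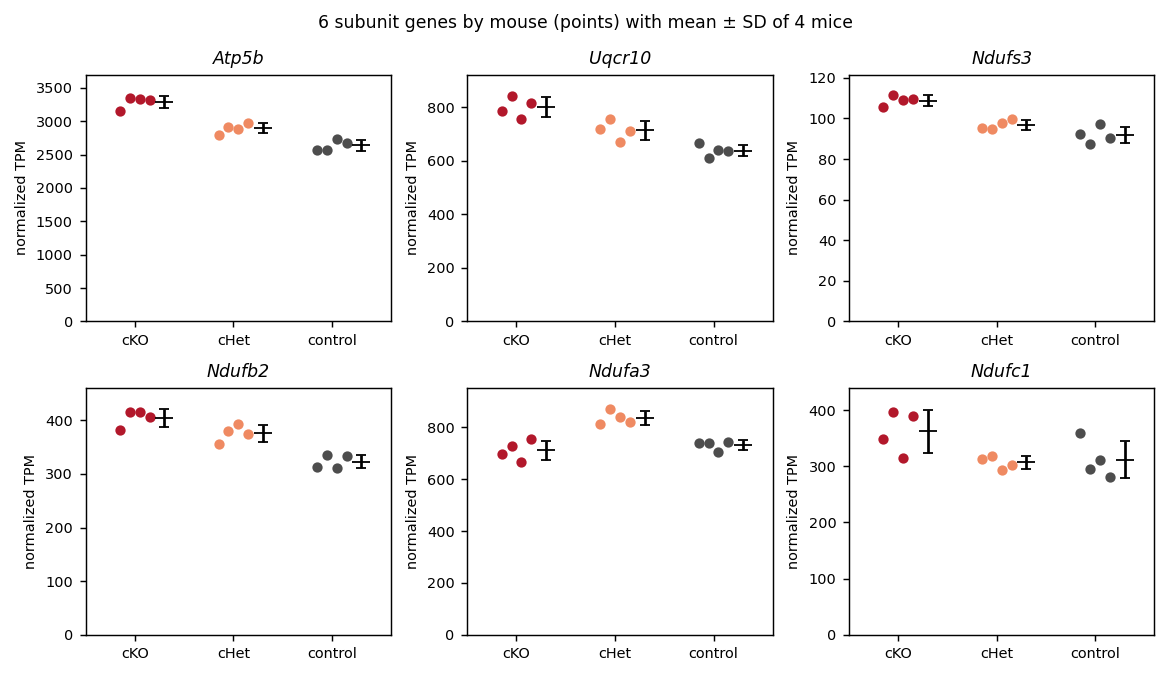
Normalized TPM (vertical axes, from 0) of 6 subunit genes in each cord (points) of the cKO, cHet and control groups, with mean ± SD of 4 mice. Atp5b and Uqcr10 separate all 3 groups, Ndufs3 sets cKO apart from the others, Ndufb2 sets control apart, Ndufa3 is highest in the 4 cHet cords (813 to 872 TPM), and the Ndufc1 groups overlap.

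Complex III had the highest share of called members, 6 of 8, and the member with the highest difference. Uqcr10, a small subunit near cytochrome c1 (chromosome 11, 4701973 to 4704342), had 786, 843, 759 and 816 TPM in cKO cords, 721, 756, 670.3 and 711 TPM in cHet cords, and 666, 612, 643 and 636 TPM in control cords. Each cKO cord lay above each cHet cord, and each cHet cord above each control cord. Uqcr10 rose by 0.33 ± 0.04 in cKO against control (limma adjusted p = 0.000652). A processed pseudogene, Gm6293, with 96.0% identity to Uqcr10 over 150 bases was listed at 21.4 TPM, 2.98% of the level of Uqcr10.

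Uqcrh, the hinge protein between cytochromes c1 and c, had 904, 933, 913 and 928 TPM in cKO cords, 894, 941, 901 and 880.2 TPM in cHet cords, and 823, 771, 783 and 796 TPM in control cords. Here the cKO and cHet cords overlapped and all 8 lay above control. Uqcrh rose by 0.21 ± 0.03 in cKO against control (limma adjusted p = 0.000702). Uqcr11 and Uqcrb, other small subunits, rose by 0.23 and 0.20 (limma adjusted p = 0.00411 and 0.00357), while Uqcrq was at 405 ± 16.3 TPM in cKO, 405 ± 34.8 TPM in cHet and 369 ± 21.0 TPM in control cords and was not called.

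Of the larger subunits, Uqcrfs1, the Rieske iron-sulfur protein that takes the first electron from ubiquinol, was at 173 ± 5.90 TPM in cKO, 166 ± 6.94 TPM in cHet and 155 ± 1.98 TPM in control cords (SD, n = 4 each) and rose by 0.16 in cKO against control (limma adjusted p = 0.0153). Uqcrc1, a core protein that faces the matrix, rose by 0.13 ± 0.03 (limma adjusted p = 0.0279), a call lost in 10 of 21 alternative settings, and its level is that of 1 of 2 identical rows. Uqcrc2, its partner, had 201, 201, 207 and 208 TPM in cKO cords and 194, 192, 192 and 193 TPM in control cords, without overlap, and was not called (log2 difference 0.08, limma adjusted p = 0.0601).

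In complex I the matrix arm, which holds the flavin and the iron-sulfur clusters, had catalytic core genes with called and uncalled differences. Ndufs3, a core subunit of the arm (chromosome 2, 90894634 to 90904827), had 105, 111, 109 and 109 TPM in cKO cords, 95.3, 94.7, 97.7 and 99.6 TPM in cHet cords, and 92.4, 87.4, 97.2 and 90.2 TPM in control cords. All cKO cords lay above the others, and cHet and control cords overlapped. Ndufs3 rose in cKO by 0.25 ± 0.04 against control (limma adjusted p = 0.00118), and its level too is that of 1 of 2 identical rows.

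Ndufs8, a carrier of iron-sulfur clusters, rose by 0.16 (limma adjusted p = 0.039), a call lost in 12 of 21 alternative settings. Ndufv1, the subunit that binds NADH and the flavin, differed by 0.08, Ndufv2 by 0.11, Ndufs1 by 0.08 and Ndufs7 by 0.17, and these core genes were not called (limma adjusted p = 0.195, 0.0691, 0.0566 and 0.058). For Ndufs1 the 4 cKO cords held 135 to 139 TPM and the 4 control cords 128 to 131 TPM, without overlap, as in 10.5% of all rows. Ndufs1 was called in 2 of 21 alternative settings.

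Accessory subunits of complex I surround this core. In the matrix arm 4 of 9 were called (Ndufa2, Ndufa6, Ndufa7 and Ndufa12), and in the membrane arm 11 of 19. Ndufb2 had 381, 417, 415 and 406 TPM in cKO cords, 355, 379.5, 393 and 375 TPM in cHet cords, and 314, 336, 311 and 333 TPM in control cords. Its cHet and cKO cords overlapped and all 8 lay above control, and it rose by 0.32 ± 0.04 in cKO against control (limma adjusted p = 0.000504), the highest value of complex I. Ndufb5 and Ndufb10 rose by 0.22 each (limma adjusted p = 0.00578 and 0.00635). Ndufa6 and Ndufa7 rose by 0.19 and 0.22 (limma adjusted p = 0.00406 and 0.00549).

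Ndufa4 carries a complex I name but is now assigned to complex IV. It was at 1166 ± 44.2 TPM in cKO, 1132 ± 54.0 TPM in cHet and 1047 ± 36.9 TPM in control cords (SD, n = 4 each) and rose in cKO against control by 0.15 (limma adjusted p = 0.0332), a call lost in 10 of 21 alternative settings. Its paralog Ndufa4l2, a gene known for induction by hypoxia, had 5.40, 4.96, 7.73 and 5.30 TPM in cKO cords and 5.42, 4.22, 3.80 and 5.42 TPM in control cords, which overlap.

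Ndufb4 and the row named Ndufb4c share 390 bases without a mismatch, and Ndufb4c is annotated as a processed pseudogene. It was listed at a mean of 399 TPM against 95.9 TPM for Ndufb4, so reads of one gene may be counted under the other, and neither row alone can be read as its own level. Their sum was 517 ± 21.7 TPM in cKO, 504 ± 34.7 TPM in cHet and 463 ± 14.2 TPM in control cords (SD, n = 4 each), and neither row was called. In all, 7 members, this pair and Atp5g2 among them, have a near copy at 1 TPM or more. For the rest of the 7 the copies were listed at 0.328 to 2.98% of the level of the member. An exon that overlaps an exon of another gene was found for 25 members.

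**Figure D4:**
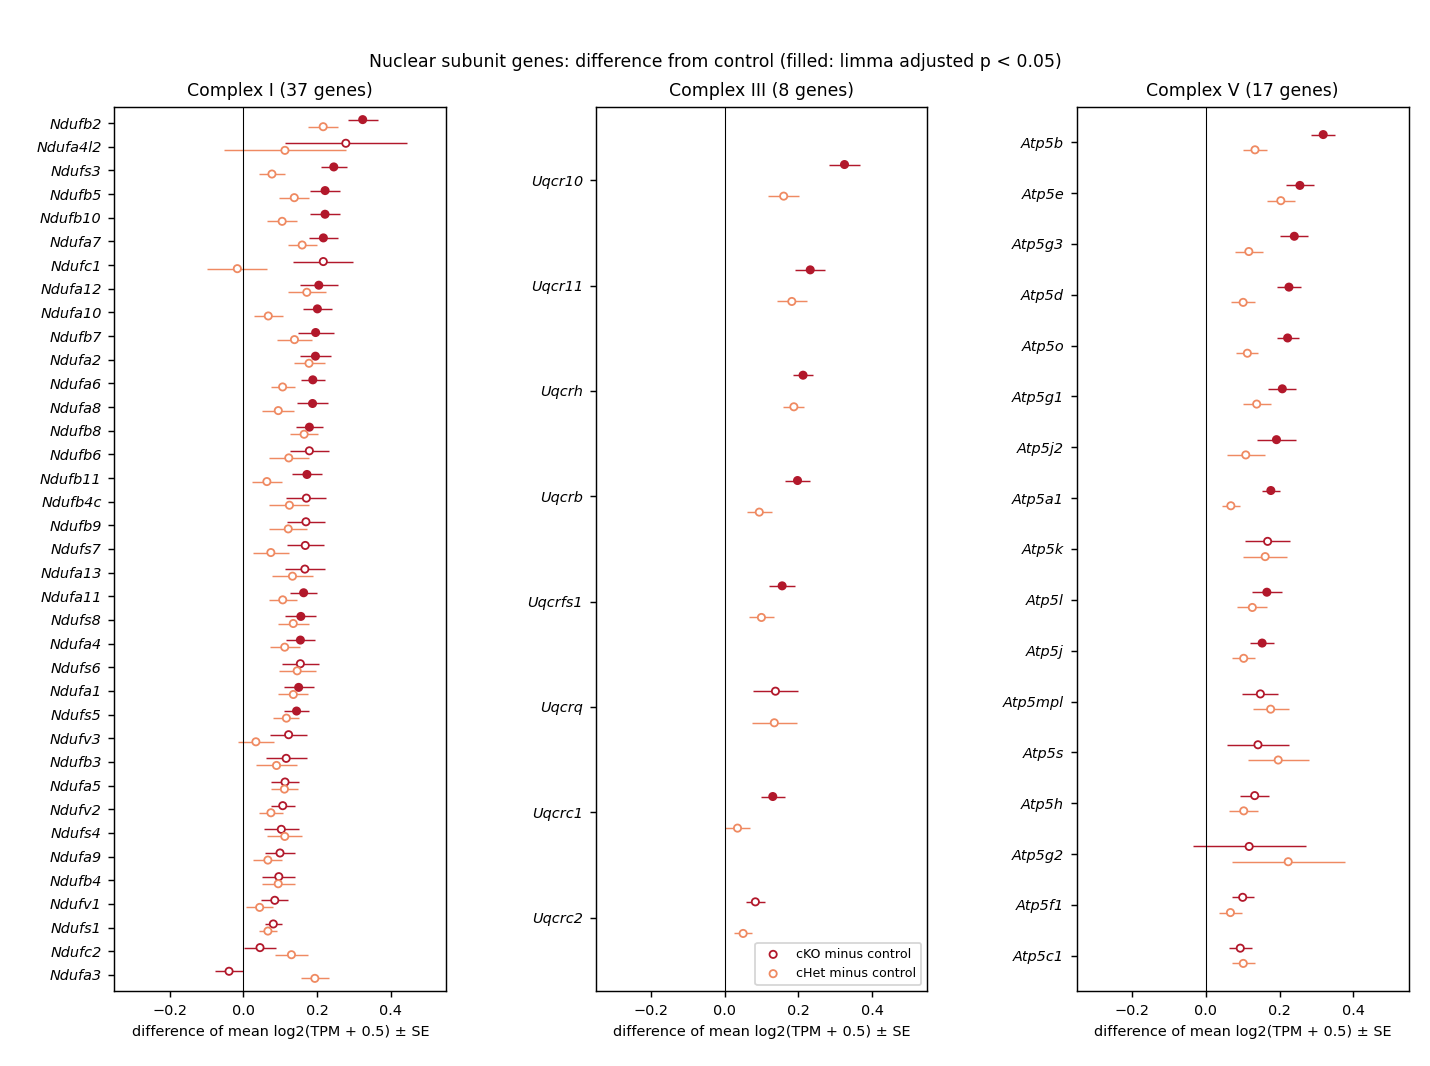
Difference of mean log2(TPM + 0.5) from control with its limma SE (horizontal axis) for 62 nuclear subunit genes of complexes I, III and V, for cKO (red) and cHet (orange), with filled points at an adjusted p under 0.05. All cKO points but that of Ndufa3 lie right of 0, 34 of them filled, and no cHet point is filled.

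In cHet cords, with 1 Tardbp allele floxed, the subunit genes lay above control in most cases, and none was called. Limma called 0 of 63 members and 0 of all rows in either direction (0% higher and 0% lower), with a smallest adjusted p of 0.0857, that of Uqcrh. At an unadjusted p under 0.05 were 48 of 63 members, beside 1724 of 15259 rows (11.3%). Rows of a level like that of the members were not counted apart. The cHet mean was above control for 62 members, and the median log2 difference was 0.11 (8.11%), beside 0.01 for all rows. With library totals set equal without mitochondrially encoded genes that median was 0.06, 57 members lay above 0, and the median of all rows was -0.04.

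All 4 cHet cords lay above all 4 controls for 30 of 63 members, as for 4.12% of all rows, and below for 0 members, as for 2.10% of all rows. By mouse, the median difference of the members from the control mean was 0.08, 0.20, 0.10 and 0.08 in the 4 cHet cords, so replicate 2 stood higher than the other 3. Without it the median over members was 0.09. In the authors' deposited table for cHet against control the likelihood ratio test had 0 members and 0% of rows higher at a q under 0.05. The Wald test in that deposited table had 2, Ndufb2 and Uqcrh, with 0.128% of rows higher.

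These were the members of smallest p per complex. In complex I, Ndufb2 was at 376 ± 15.6 TPM in cHet and 323 ± 12.8 TPM in control cords and Ndufa3 at 837 ± 25.8 TPM in cHet and 732 ± 18.5 TPM in control cords (SD, n = 4 each; limma adjusted p = 0.119 and 0.129). In complex III they were Uqcrh and Uqcr11, which differed by 0.19 and 0.18 (limma adjusted p = 0.0857 and 0.172). In complex V they were Atp5e and Atp5b, which differed by 0.20 and 0.13 on the log2 scale (limma adjusted p = 0.119 and 0.177). By complex the median log2 difference was 0.11 for complex I, 0.12 for complex III and 0.12 for complex V.

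The mean of cHet lay between those of control and cKO for 53 of 63 members, above both for 9 and below control for 1, Ndufc1. Contrasts of cKO and of cHet with control use the same 4 control cords, so their directions are not independent. Ndufc1, an accessory subunit of the membrane arm, had 349, 397, 314 and 389 TPM in cKO cords, 314, 319, 293 and 303 TPM in cHet cords, and 358, 296, 311 and 282 TPM in control cords. Its groups overlapped, and limma called it in no contrast. In the authors' deposited table for cKO against cHet it was higher, with a q of 0.0374 by the likelihood ratio test and 0.00457 by the Wald test.

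Set directly against cHet, 6 members rose in cKO and 1 fell, beside 2.41% of all rows called higher and 2.61% lower. The median log2 difference of the members was 0.05 (3.38%), beside 0.0049 for all rows. Among those that rose were Atp5b (0.19 ± 0.03, limma adjusted p = 0.00494), Ndufs3 (0.17 ± 0.04), Atp5a1 (0.11 ± 0.02), Atp5d (0.12 ± 0.03) and Uqcr10 (0.16 ± 0.04), of which 3 belong to the F1 head and central stalk. The count of 7 was 3 without cKO replicates 2 or 4 or without cHet replicates 1, 3 or 4, and 4 without cKO replicate 3, each left out alone, and it was 9 without cHet replicate 2. Only Atp5b and Ndufa3 were called under all 21 alternative settings. All 4 cKO cords lay above all 4 cHet cords for 9 members, as for 6.14% of all rows, and below for 1, as for 5.33%.

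Ndufa3, a small accessory subunit of the membrane arm (chromosome 7, 3617373 to 3620327), was the member that fell. It had 699, 729, 668 and 754 TPM in cKO cords, 813, 872, 839 and 823 TPM in cHet cords, and 741, 738, 704 and 742 TPM in control cords. The cHet cords stood above all 8 others, and the cKO and control cords overlapped. Ndufa3 was lower in cKO than in cHet by a log2 difference of -0.23 ± 0.04 (limma adjusted p = 0.00367), and its difference from control was -0.04 ± 0.04 in cKO (limma adjusted p = 0.606). In the authors' deposited table for cKO against cHet, 4 members were higher and 1 lower by the likelihood ratio test at a q under 0.05 (1.87% of rows higher and 1.91% lower), and 6 higher and 1 lower by the Wald test (2.48% of rows higher and 2.47% lower). The lower one was Ndufa3, and Ndufc1 was among the higher ones by both tests.

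Other mitochondrial gene lists were counted in the same fit, where 5.75% of all rows were called higher and 3.25% lower in cKO against control. All 4 genes of complex II rose in cKO against control, with Sdhc, a membrane anchor, the highest of them at 0.19 ± 0.03 on the log2 scale (limma adjusted p = 0.00395). Of 16 nuclear genes of complex IV 10 rose. Cox7a1, the heart and muscle form of subunit VIIa, was at 131 ± 11.8 TPM in cKO, 66.3 ± 6.97 TPM in cHet and 50.2 ± 6.75 TPM in control cords (SD, n = 4 each). Its difference of cKO from control was 1.37 ± 0.10, where no member of complexes I, III and V exceeded 0.33. Of 13 mitochondrially encoded protein genes 8 rose, among them mt-Nd6, a complex I subunit, at 9869 ± 397 TPM in cKO, 6946 ± 421 TPM in cHet and 6740 ± 580 TPM in control cords. In this list cHet lay near control, with a median log2 difference of 0.04 against control, where the nuclear members had 0.11.

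Assembly factors and partner genes were counted for each complex, beside 5.75% of all rows called higher in cKO against control. Of 8 measured genes in the list for complex V 6 rose in cKO against control. Among them were Fmc1, an assembly factor of the F1 head (0.31 ± 0.06, limma adjusted p = 0.00871), and Atpaf1, which binds free beta subunits (0.18 ± 0.04). The list was written with Usmg5, a subunit of the synthase, and Dmac2, an assembly factor of complex I. Its count is therefore not one of complex V assembly and regulatory genes alone. For complex I, with Ndufab1, the acyl carrier subunit, in the list, 2 of 16 were called, Timmdc1 and Ndufaf6. For complex III 0 of 8 were called. That list also holds Cyc1, the catalytic subunit cytochrome c1, which is no assembly gene and differed by 0.15 ± 0.04 (limma adjusted p = 0.0521). Of 13 tricarboxylic acid cycle genes 5 rose, among them Idh3b, a subunit of NAD-dependent isocitrate dehydrogenase (0.16 ± 0.03, limma adjusted p = 0.00327).

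Regulators of mitochondrial biogenesis had 2 of 14 called higher in cKO against control, beside 5.75% of all rows. These were Esrrg and Esrra, orphan nuclear receptors of the oestrogen-related family. They differed by 0.15 ± 0.03 and 0.17 ± 0.05 on the log2 scale (limma adjusted p = 0.0177 and 0.0422). Ppargc1a, the coactivator PGC-1alpha, was at 24.3 ± 0.702 TPM in cKO, 22.8 ± 3.80 TPM in cHet and 24.5 ± 1.90 TPM in control cords, and Nrf1 at 11.1 ± 1.90 TPM in cKO, 12.1 ± 1.33 TPM in cHet and 11.4 ± 0.948 TPM in control cords (SD, n = 4 each). None of these lists had a gene called lower in cKO against control, and none had a gene called in cHet against control.

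**Figure D5:**
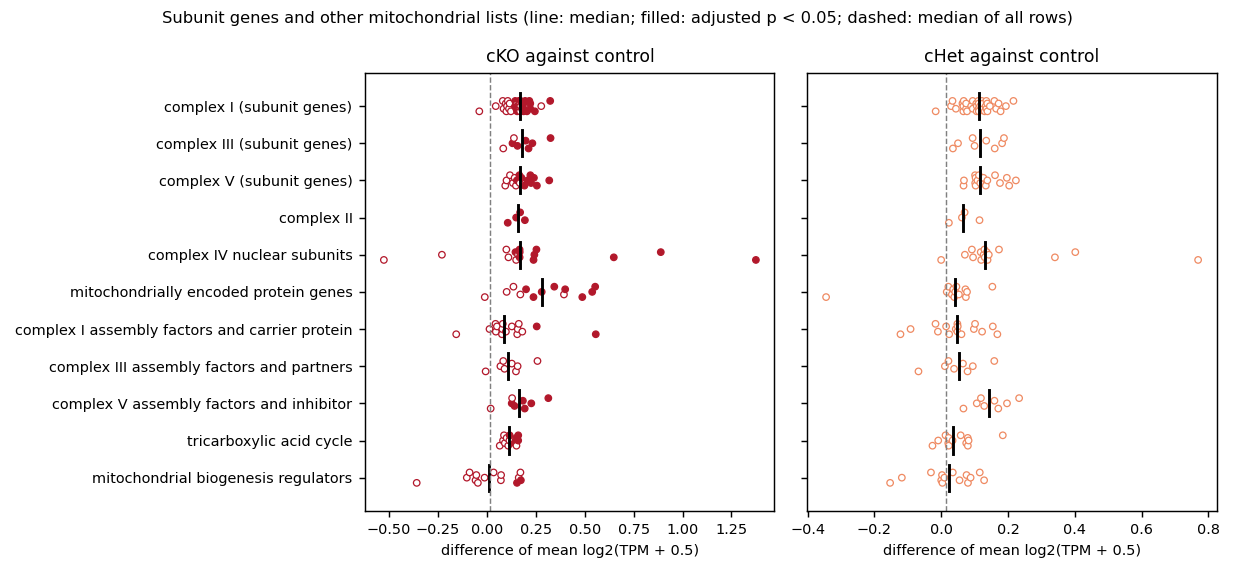
Difference of mean log2(TPM + 0.5) (horizontal axes, with different ranges) of each gene of the subunit groups and of 8 other mitochondrial lists (rows), for cKO against control and for cHet against control, with the list median as a bar, called genes filled and the median of all rows dashed. In cKO the bars of the subunit groups lie at 0.17 to 0.18 and that of the mitochondrially encoded genes at 0.28, and in cHet no point is filled.

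Highly expressed genes in general lay slightly higher in cKO. Among 1479 other rows with a mean of at least 100 TPM, a level that 58 of the 63 members reach, 18.4% were called higher and 6.36% lower in cKO against control, with a median log2 difference of 0.06, and in cHet against control the median was 0.05. The median of the members, 0.17, stood above that of these rows. Annotated subunit transcripts are mostly short, with 14 members at 500 bases or less and 28 more at 750 bases or less. Length here is the median over all annotated transcripts of a gene, and need not be that of the expressed mRNA. Other rows of 500 bases or less had a median difference of 0.03 in cKO against control, and the 14 members of that length 0.17.

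Summed markers of oligodendrocytes, astrocytes and microglia set the cKO cords apart from cHet and control cords, while summed neuron markers overlapped between the groups. In cKO against control 3 of 12 neuron markers, 4 of 10 astrocyte markers and 6 of 8 microglia markers were called higher. Called lower were 2 astrocyte and 7 of 10 oligodendrocyte markers, and 0 of 5 endothelial and 0 of 5 blood genes were called. Of all rows 5.75% were called higher and 3.25% lower. Among the other rows of at least 100 TPM the shares were 18.4% and 6.36%. Summed neuron markers ranged over 6602 to 7217 TPM in cKO, 6623 to 7153 TPM in cHet and 6376 to 6741 TPM in control cords. Endothelial markers summed to 171 to 201 TPM in cKO, 171 to 188 TPM in cHet and 163 to 173 TPM in control cords. Blood genes varied widely within groups, with sums of 1070 to 5123 TPM in cKO, 816 to 1890 TPM in cHet and 1094 to 2726 TPM in control cords. Oligodendrocyte markers summed to 17586 to 20034 TPM in cKO, 21200.4 to 25136 TPM in cHet and 21181 to 22172 TPM in control cords. Astrocyte markers summed to 5510 to 5964 TPM in cKO, 4739 to 4922 TPM in cHet and 4578 to 4825 TPM in control cords, and microglia markers to 319 to 349 TPM in cKO, 253 to 272 TPM in cHet and 248.7 to 261 TPM in control cords. Of tissues rich in mitochondria, the 8 skeletal muscle genes summed to 16.4 to 30.3 TPM in cKO, 20.7 to 33.7 TPM in cHet and 17.9 to 37.8 TPM in control cords, and the 4 brown fat genes to 7.15 to 9.54 TPM in cKO, 6.66 to 9.88 TPM in cHet and 7.65 to 8.42 TPM in control cords. The part of these cell type differences in the levels of the subunit genes was not tested.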

How the data were processed

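Per the labels' protocols, spinal cords were flash frozen, Trizol was used to extract RNA, and the library kit was Illumina TruSeq. The authors' deposited signal is normalized TPM per gene; per the submitters' processing notes it came from kallisto 0.44.0 and sleuth 0.30.0 on GRCm38. The authors' deposited tables of each pair of groups give p-values and q-values, and a score (the Wald effect) of which only the sign was used here. TPM keeps no counts, so no counting interval is given, and the precision of a value rests on 4 mice per group.

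The members and gene lists were chosen with earlier results of these data known. Rows with a mean of at least 1 TPM were tested as log2(TPM + 0.5) with limma 3.58.1 in R 4.3.3 (group means, contrasts, eBayes with trend, two-sided, all 12 mice, no covariate), with Benjamini-Hochberg adjustment over 15259 rows. A fold change on this scale understates that of low genes. A gene is called, and said to rise or fall, at an adjusted p under 0.05. Each library came from a mouse of its own by the labels, whose numbering here follows sample order and pairs nothing.

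Per comparison and complex, the text names up to 6 called members per direction by adjusted p, or the 2 of smallest p where none was called, and members by role (catalytic core, c-ring, paralog pairs, highest and lowest level). Members named beyond this, such as Ndufc1, were chosen after their values were seen. Lists name up to 3 called genes. The results of some genes that this rule takes are not reported here; they stay in the counts. Gene coordinates are those of the GENCODE annotation of GRCm38, near copies were found with BLAST between annotated transcripts (at least 95% identity over at least 100 bases and 50% of the shorter transcript), and promoter windows are those of RefSeq.

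Alternatives were other pseudocounts (0.1 and 1), other filters, median-of-ratios scaling, equal totals without mitochondrially encoded genes, sex as a covariate, the compared groups alone, no trend, sample weights, added copies of a symbol, removal of a length trend, and each mouse left out.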

Additional observations from a re-analysis of the deposited data

Results flagged for a closer look

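For the summed levels and the members named by rule, a cord was taken to stand apart where its gap to the nearest cord of its group, divided by the group's range, exceeded Dixon's critical value at 95%. This held in 9 of 105 groups of 4 cords examined, and chance gives about 1 in 20. No cause was tested.

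In cKO, replicate 1 was the lowest for Atp5b at 3146 TPM (others 3323 to 3352 TPM) and replicate 3 the lowest for Atp5g2 at 43.3 TPM (others 63.3 to 66.8 TPM). Replicate 3 was the highest for Ndufa4l2 at 7.73 TPM (others 4.96 to 5.40 TPM), replicate 2 for Ndufa7 at 336 TPM (others 314 to 315 TPM), and replicate 4 for Ndufs1 at 139 TPM (others 135 to 136 TPM) and for Ndufs8 at 168 TPM (others 159 to 159.9 TPM).

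In cHet, replicate 4 was the highest for Atp5s at 50.1 TPM (others 37.4 to 39.0 TPM), and replicate 2 for Ndufs7 at 246 TPM (others 221 to 224 TPM). In control, replicate 3 was the lowest for Ndufa3 at 704 TPM (others 738 to 742 TPM). The calls of Atp5b and Ndufa7 in cKO against control were kept in all 21 alternative settings, which include leaving out the cKO cord flagged for each. That of Ndufs8 was lost in 12 of the 21.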

How the results depend on the processing

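The direction of the members' medians held in every alternative run. For cKO against control, 23 to 35 members were called and the median was 0.154 to 0.184 when each mouse was left out. That median was 0.115 with equal totals without mitochondrially encoded genes, and 0.126 with the length trend removed and median-of-ratios scaling together, an alternative chosen after seeing the data. For cHet against control the median was 0.0591 with equal totals and 0.0916 to 0.130 with a mouse left out, and 0 members were called throughout. The members' median minus that of all rows was 0.153 in cKO and 0.0996 in cHet, and 0.151 and 0.0977 with equal totals. For cKO against cHet, 3 members were called when only the compared groups were fitted and 3 without the trend, 3 to 9 with a mouse left out, and the median was 0.029 to 0.0749. Of the 35 members called in cKO against control, 20 were called in all 21 alternatives. Among single values of the named genes in that contrast, 34 of 651 lost a call, 7 gained one and 1 changed sign, that of Atp5g2, which ranged with a mouse left out between -7.95e-05 (without control replicate 2) and 0.264 (without cKO replicate 3). No paired analysis was possible because the labels give no replicate number shared between groups. Differences near the error of 4 mice per group could go uncalled, and reads shared with near copies limit Ndufb4 and Atp5g2.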
